A study of Homo sapiens with 66 samples.

Results

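The binding sites described here separate HIF-1α from HIF-2α in HKC-8 cells, a line of human renal proximal tubule epithelium, held at 0.5% oxygen for 6 h. Chromatin immunoprecipitation with sequencing (ChIP-seq) gave a list of called peaks for each of 2 libraries with an antibody to HIF-1α and 2 with an antibody to HIF-2α. Sites were sorted by these 4 lists. A HIF-1-only site had a peak in each HIF-1α list and none in the HIF-2α lists, a HIF-2-only site the reverse, and a site of both isoforms was called in all 4 lists. Of 5152 merged sites in the 4 lists, 98 (1.9%) were HIF-1-only, 190 (3.69%) were HIF-2-only and 38 (0.738%) were of both, which makes 326 classed sites. The lists of the whole series merge to 50316 sites.

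The series holds 50 ChIP libraries, in 25 groups of 2, and 16 inputs that were not analysed here as samples. The groups used below, beside the 4 lists that define the classes, were HIF-1β at 0.5% oxygen for 6 h, all 3 subunits in HKC-8 at 0.5% for 16 h, at 0.5% for 48 h and at 3% for 6 h, and HKC-8 WT, HIF1aKO and HIF2aKO cells of a knockout experiment at 0.5% for 16 h. Each knockout line is a CRISPR-Cas9 clone, so clone and genotype cannot be told apart. RCC4, a VHL-defective renal carcinoma line that keeps HIF-α in air, was profiled in normoxia, and the liver carcinoma line HepG2 at 0.5% for 16 h. Other HKC-8 cells carried no change of genotype in the labels. The labels do not say whether replicates were separate cultures, so the p-values below measure the spread between these libraries, which may be technical.

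HIF is a dimer of an oxygen-regulated α subunit and the constitutive HIF-1β. In oxygen, prolyl hydroxylases mark HIF-α for capture by VHL and destruction, and in hypoxia HIF-α accumulates, pairs with HIF-1β and binds the hypoxia response element (HRE), whose core is ACGTG or GCGTG. Both isoforms recognise the same core. In kidney, HIF-1α is best known for the genes of glycolysis, and HIF-2α for roles in clear cell carcinoma. AP-1 is a family of Jun and Fos dimers that bind TGACTCA or TGAGTCA at enhancers, and TEAD factors, the DNA-binding partners of YAP, bind GGAATG.

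The sequences below are from well-ranked sites picked for an HRE core near the centre, so the core they share follows from that choice. They are examples and do not measure how often a motif occurs in a class. Each is 81 bases of GRCh37, plus strand, around the HRE core nearest to the site centre. Capitals mark the HRE core, ACGTG or GCGTG or their reverse complements CACGT and CACGC, and the AP-1 motif. These motifs may overlap, and the element CACGTG holds the core on both strands.
The first windows are from HIF-1-only sites at or near the starts of genes for a glycolytic enzyme, a hexokinase and FAM174B.
PGK1 (HIF-1-only), chrX:77359505-77359585: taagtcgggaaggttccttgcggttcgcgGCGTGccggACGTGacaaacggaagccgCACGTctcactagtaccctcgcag
HK2 (HIF-1-only), chr2:75060987-75061067: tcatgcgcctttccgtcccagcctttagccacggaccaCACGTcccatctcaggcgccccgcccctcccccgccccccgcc
FAM174B (HIF-1-only), chr15:93352384-93352464: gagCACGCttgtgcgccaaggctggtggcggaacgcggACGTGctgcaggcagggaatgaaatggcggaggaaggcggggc
The next are from HIF-2-only sites, of which the NPPB window carries both an HRE core and an AP-1 motif.
NPPB (HIF-2-only), chr1:11919320-11919400: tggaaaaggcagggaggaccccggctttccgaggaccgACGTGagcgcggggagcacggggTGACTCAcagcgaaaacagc
SLC7A5 (HIF-2-only), chr16:87894496-87894576: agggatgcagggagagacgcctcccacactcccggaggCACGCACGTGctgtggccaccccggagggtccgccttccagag
TMEM63B (HIF-2-only), chr6:43978747-43978827: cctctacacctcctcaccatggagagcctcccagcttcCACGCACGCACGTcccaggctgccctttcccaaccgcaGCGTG
The last are from sites of both isoforms, and at ARRDC3 an AP-1 motif runs into an HRE core.
ARRDC3 (both), chr5:90576423-90576503: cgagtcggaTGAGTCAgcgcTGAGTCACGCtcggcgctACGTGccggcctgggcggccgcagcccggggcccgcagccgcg
ALDOA (both), chr16:30076845-30076925: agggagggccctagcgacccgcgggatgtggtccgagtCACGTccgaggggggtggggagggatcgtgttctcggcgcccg
SNAPC1 (both), chr14:62217852-62217932: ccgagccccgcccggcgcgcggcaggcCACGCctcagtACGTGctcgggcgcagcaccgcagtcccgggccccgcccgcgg

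The site near NPPB, which encodes a natriuretic peptide, holds ACGTG and TGACTCA in the printed window. At PGK1, which encodes the glycolytic phosphoglycerate kinase, 3 cores stand in 81 bases and no AP-1 motif does.

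A further pair of windows comes from HIF-2-only sites with no HIF-1β peak at 6 h. They were chosen after their values were seen, for the repeats of GGAATG they hold, which the capitals mark on either strand (GGAATG or CATTCC). Neither holds an HRE core within 100 bp of the site centre.
SERTAD4 (HIF-2-only), chr1:210439135-210439215: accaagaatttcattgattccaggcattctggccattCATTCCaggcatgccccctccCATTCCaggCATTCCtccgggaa
ROBO2 (HIF-2-only), chr3:76546981-76547061: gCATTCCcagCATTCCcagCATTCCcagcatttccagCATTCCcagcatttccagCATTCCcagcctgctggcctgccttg

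The SERTAD4 window holds 3 copies and the ROBO2 window 5. Both sites are described with their class below.

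The lists behind the classes were short and most of their peaks were not shared. HIF-1α gave 1496 and 1319 peaks, HIF-2α 1417 and 1493, and HIF-1β 1284 and 1271. The score of a peak is the authors' caller output, read as −10 times the log10 of its p-value, and its minimum in each of these lists was close to 50 (p of 1e-05 on that scale). HIF-1α replicates shared 12.6% of the shorter list and HIF-2α replicates 18.8%, against 4.78 to 6.63% for the 4 pairs of a HIF-1α with a HIF-2α list. Peaks found in the other replicate were the stronger ones: in HIF-1α replicate 1 their median score was 126, against 55.0 for the rest, and 87.1% held an HRE core, against 34.2%. Across the other 3 lists the core was in 66.5 to 89.1% of replicated peaks and in 29.5 to 34.3% of the rest.

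Most replicated sites belonged to 1 isoform. Of 164 sites replicated for HIF-1α, 98 (59.8%, 95% exact binomial interval 51.8 to 67.3) were HIF-1-only, 38 (23.2%) were of both and 28 had a peak in 1 of the HIF-2α lists. Of 258 replicated for HIF-2α, 190 (73.6%, 67.8 to 78.9) were HIF-2-only, 38 (14.7%) were of both and 30 had a peak in 1 HIF-1α list. Of the remaining 4768 merged sites, 2413 were in 1 HIF-1α list, 2313 in 1 HIF-2α list and 42 in 1 of each. Here and below, intervals treat sites as independent and cover counting error only, and sites are not replicates of a condition.

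Membership turned on a limit of the peak caller for many sites. The lower of the pair of scores was under 60 at 32 of 98 sites of HIF-1α alone and at 52 of 190 of HIF-2α alone, with minima of 50.03 and 50.25. Just outside the classes, the 28 and 30 sites with a single peak of the other isoform had scores from 50.2 to 216 for that peak in the first set and from 50.4 to 214 in the second. A site left out of a list can lie just below the limit, and read depth is not known from the lists. A peak of the other isoform lay nearby without overlap at few sites: within 1 kb at 2 HIF-1-only sites and at 1 HIF-2-only site, and within 10 kb at 6 and 9.

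HIF-1-only sites were mostly promoter-proximal and HIF-2-only sites mostly distal. A centre within 1 kb of the transcription start site (TSS) of a protein-coding gene was found at 63 of 98 HIF-1-only sites (64.3%, 54.0 to 73.7), at 18 of 189 HIF-2-only sites on the main chromosomes (9.52%, 5.74 to 14.6) and at 18 of 38 sites of both (47.4%, 31.0 to 64.2). The difference between the first pair was 54.8 percentage points (Newcombe interval 43.7 to 64.2). Median distances were 0.21 kb, 26.2 kb and 1.19 kb. Beyond 10 kb lay 24.5% of HIF-1-only, 72.5% of HIF-2-only and 34.2% of sites of both. The difference depended on which HIF-1α peaks were counted. With HIF-1α sites taken from a single list, against replicated HIF-2α sites, it was 1.25 points without replicate 1 (−3.81 to 5.13) and 8.81 without replicate 2. With HIF-2α sites from a single list it was 58.7 and 56.3. Over whole lists with peaks scoring under 100 left out, and no replication asked, HIF-1α minus HIF-2α was 51.4 points.

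**Figure D1:**
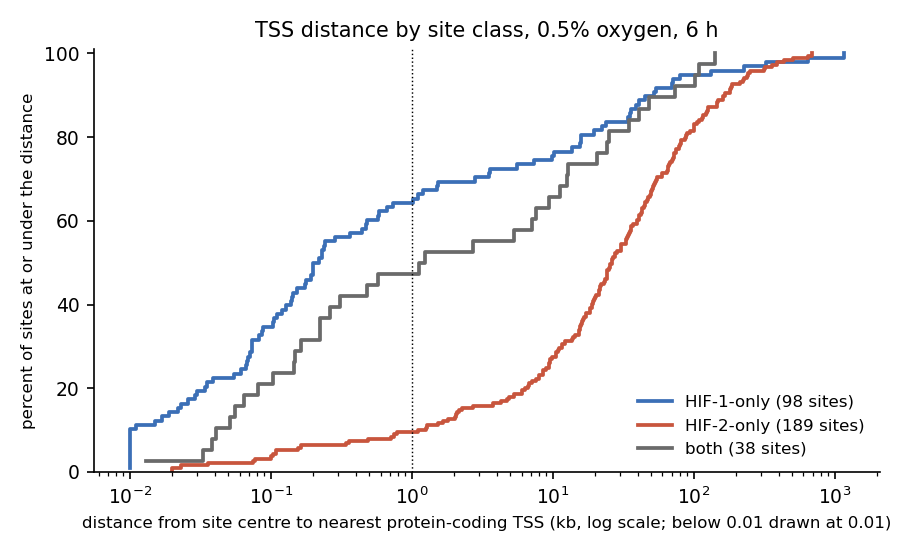
Cumulative percent of sites (y axis) at or under a distance from site centre to the nearest protein-coding TSS (x axis, kb, log scale), for HIF-1-only, HIF-2-only and both, with a dotted line at 1 kb. The HIF-2-only curve is at 9.52% at the line and the HIF-1-only curve at 64.3%, with sites of both at 47.4%.

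The UTR share and base composition of HIF-2-only sites also differed from the other classes, which were closer to a TSS. The centre was in a UTR at 21.4% of HIF-1-only, 1.59% of HIF-2-only and 18.4% of sites of both. Introns held 30.6%, 43.9% and 34.2%, intergenic sequence 36.7%, 50.3% and 47.4%, and coding exons 11.2%, 4.23% and 0%. HIF-2-only sites were less often in UTRs than sites of both by 16.8 points (7.17 to 31.9), while for introns and intergenic sequence the intervals of that difference include 0. The mean GC content of the central 200 bp was 67.0% in HIF-1-only sites, 55.6% in HIF-2-only sites and 68.9% in sites of both, with a median of 21, 5 and 21 CpG dinucleotides. Among sites over 1 kb from a TSS the gap between HIF-1-only and HIF-2-only was smaller. Mean GC there was 60.8%, 55.1% and 66.9%, and the median CpG count 8, 5 and 15.5. The other shares of this paragraph are not split by distance here. The GC box GGGCGG, the element of Sp1-type factors common in CpG island promoters, was in 50%, 17.5% and 57.9% of sites, and in 43.4% of the 200-bp windows centred on all 78564 protein-coding TSS positions.

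Motifs were sought on both strands within 100 bp of the site centre, and in control windows 2 kb to either side. The HRE core was in 87.8% of HIF-1-only sites (79.6 to 93.5), 60.8% of HIF-2-only sites (53.5 to 67.8) and 92.1% of sites of both, against 26.5%, 24.9% and 30.3% of control windows and 40.9% of TSS windows. HIF-1-only sites exceeded HIF-2-only sites by 26.9 points (16.5 to 35.7). At least 2 cores stood in 50%, 26.5% and 57.9% of sites. Where a core was present its position was alike between the classes: the nearest core was a median of 27.5 bp from the centre in HIF-1-only, 30.0 bp in HIF-2-only and 24.0 bp in sites of both, and it began with A in 73.3%, 65.2% and 77.1%. With HIF-1α sites from a single list the difference turned to −28.1 points (without replicate 1) and −25.7 (without replicate 2), and with HIF-2α sites from a single list it rose to 51.9 and 54.7. A match describes the letters of the window and does not show that a factor was bound there.

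The AP-1 motif ran the other way. It was in 4.08% of HIF-1-only sites, near the 3.57% of their control windows, in 22.2% of HIF-2-only sites against 5.82%, and in 18.4% of sites of both against 1.32%. The HIF-1-only share was 18.1 points lower than the HIF-2-only share (interval of the difference −25.0 to −10.1), and TSS windows held the motif at 2.44%. With HIF-2α sites from a single list the difference was −7.45 points without replicate 1 and −5.07 without replicate 2, and the interval of the latter (−7.80 to 0.36) includes 0. Core and AP-1 motif together were in 3.06%, 16.4% and 18.4% of sites, as at NPPB and ARRDC3 in the sequences above. Among sites over 1 kb from a TSS (35 HIF-1-only, 171 HIF-2-only), a split added after the data were seen, AP-1 was in 8.57% and 21.6% with a difference of −13.1 points whose interval (−21.9 to 1.8) includes 0, and the HRE core was in 85.7% and 60.8%.

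GGAATG, the TEAD-type motif, stood above its control windows in the HIF-2-only class. It was in 36% of HIF-2-only sites against 9.79% of their control windows, and in 7.14% of HIF-1-only and 10.5% of sites of both against 7.65% and 9.21%. The HIF-1-only share was 28.8 points below the HIF-2-only share (−36.8 to −19.4), and over 1 kb from a TSS the shares were 8.57% and 35.1%. TSS windows held it at 7.81%. The motif was singled out after its values were seen.

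**Figure D2:**
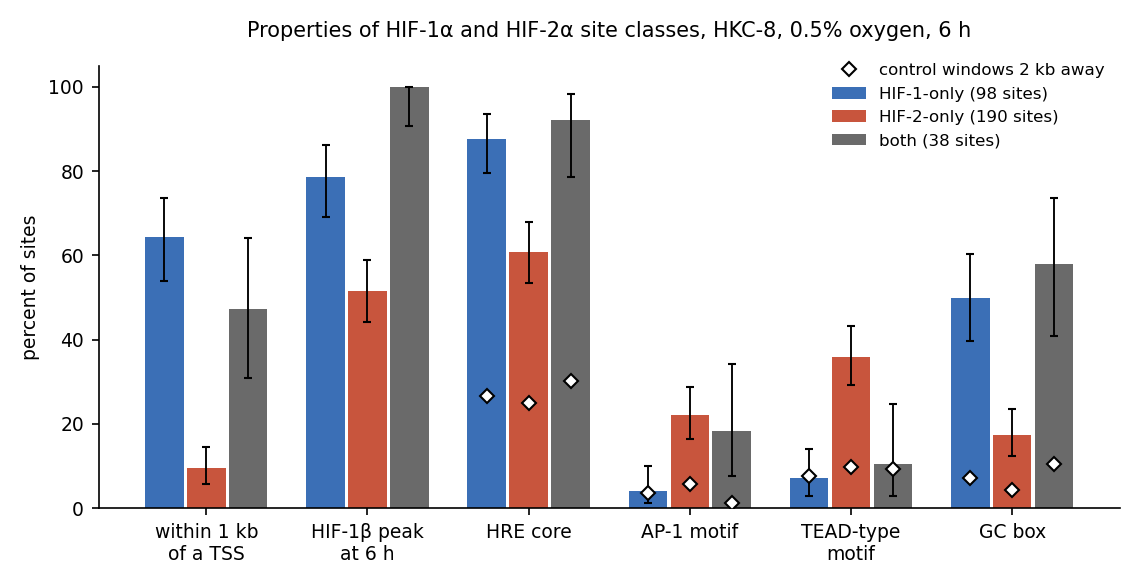
Percent of sites (y axis) with each property (x axis) for HIF-1-only, HIF-2-only and both, with 95% exact binomial intervals as error bars and the share in control windows 2 kb away as diamonds. HIF-1-only bars stand above HIF-2-only bars for TSS proximity, HIF-1β, HRE core and GC box, and below them for the AP-1 and TEAD-type motifs.

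HIF-1β, whose lists the sorting did not use, had a peak in at least 1 of its 2 libraries at 77 of 98 HIF-1-only sites (78.6%, 69.1 to 86.2), at 98 of 190 HIF-2-only sites (51.6%, 44.2 to 58.9) and at 38 of 38 sites of both (100%, 90.7 to 100). The HIF-1-only share was higher by 27.0 points (15.5 to 36.9). With a single list for HIF-1α this turned to −47.9 (without replicate 1) and −41.8 points (without replicate 2), and with a single list for HIF-2α it was 67.5 and 69.6. Both HIF-1β libraries had the site at 55.1%, 29.5% and 100%. With the sites moved by 10 kb the shares were 0%, 0.526% and 0%.

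The HIF-2-only class was not of a piece with respect to called HIF-1β peaks. A site without HIF-1β here had no peak in either 6 h HIF-1β list, of 1284 and 1271 peaks. Such a site can lie just below the caller's limit, so HIF-1β need not be absent there. From read signal at 0.5% oxygen for 16 h, the authors' study reported HIF-1β above background at nearly all its HIF-2α sites in HKC-8. At the 98 sites with a HIF-1β peak, 84.7% (76.0 to 91.2) held an HRE core, 32.7% (23.5 to 42.9) an AP-1 motif and 23.5% (15.5 to 33.1) GGAATG. At the 91 without, on the main chromosomes, 35.2% (25.4 to 45.9) held an HRE core against 22.5% of their control windows, 11% an AP-1 motif against 4.40%, and 49.5% (38.8 to 60.1) GGAATG against 8.24%. Of these 91 sites, 19 (20.9%) held at least 2 copies of GGAATG, 30 (33.0%) held it with no HRE core, and 28 (30.8%) held none of the 3 motifs.

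**Figure D3:**
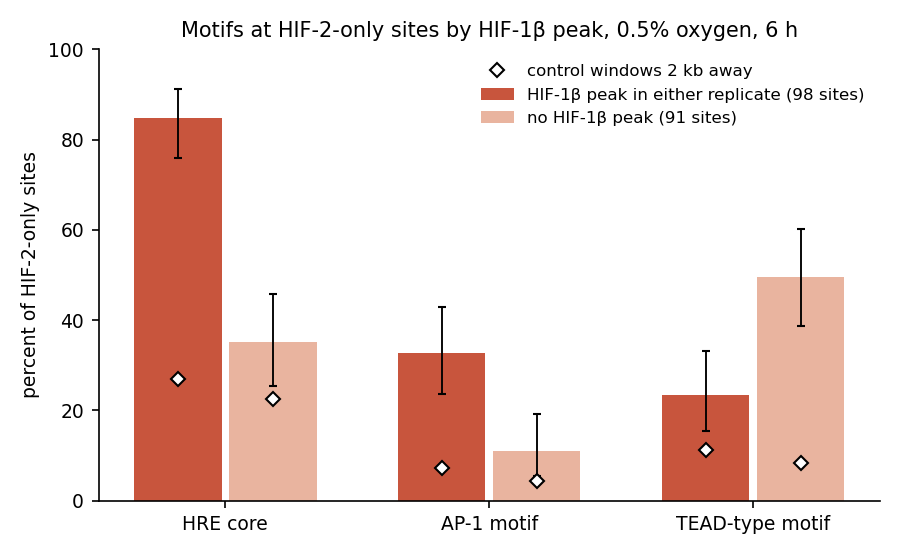
Percent of HIF-2-only sites (y axis) with each motif (x axis), split by a HIF-1β peak in either 6 h library (98 sites) or in neither (91 sites), with 95% exact binomial intervals and control windows as diamonds. The HRE core falls from 84.7% to 35.2% and the TEAD-type motif goes from 23.5% to 49.5% between the sets.

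Among sites with HIF-1β the classes differed less in the HRE core and more in AP-1. HIF-1-only sites with HIF-1β (77) held a core at 90.9% and an AP-1 motif at 2.60%, so that HIF-1-only minus HIF-2-only was 6.22 points for the core (−4.08 to 15.8) and −30.1 points for AP-1 (−40.0 to −19.4). Of these 77 sites 71.4% were promoter-proximal. The 21 HIF-1-only sites without HIF-1β held a core at 76.2%, GGAATG at 4.76%, and were promoter-proximal at 38.1%.

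Sites without HIF-1β were called to a different extent across libraries in the 2 classes. Their 6 h scores differed too, with a median of 62.9 in the HIF-1-only class and 89.3 in the HIF-2-only class. Neither these scores nor the lengths of the lists were matched. A HIF-1-only site without HIF-1β was called in a median of 1 of the 8 HIF-1α libraries of other HKC-8 conditions, and 8 of 21 were in none. A HIF-2-only site without HIF-1β was called in a median of 5 of 8 HIF-2α libraries and 0 of 8 HIF-1α libraries, and 6 of 92 were in none of the HIF-2α libraries. At 0.5% for 16 h the 2 HIF-2α libraries had 55.4% and 68.5% of these 92 sites, the 2 HIF-1α libraries had 0% and 0%, and the 2 HIF-1β libraries had 15.2% and 27.2%. In WT cells of the knockout experiment HIF-2α had 79.3% and 83.7%, HIF-1β had 59.8% and 70.7% in lists of 6199 and 8279 peaks, and HIF-1α had 22.8% and 19.6%. No HIF-1α peak was called at these sites at 16 h in the first experiment, and some were here. In HIF1aKO cells the HIF-2α shares were 82.6% and 78.3% and the HIF-1β shares 47.8% and 64.1%. In HIF2aKO cells HIF-1β had 29.3% and 32.6% and HIF-1α had 10.9% and 9.78%. In RCC4 HIF-2α had 58.7% and 40.2%, HIF-1α 27.2% and 4.35%, and HIF-1β 4.35% and 4.35%.

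The 3 best ranked HIF-2-only sites by score were all of this kind, with no HIF-1β peak and no HRE core within 100 bp. The first, in a coding exon 3.74 kb from the TSS of CES3, which encodes a carboxylesterase, scored 761.68 and 584.69 in the 2 HIF-2α lists and was in 7 of 8 other HIF-2α and 0 of 8 HIF-1α libraries. The second, 33.0 kb from SERTAD4, scored 453.21 and 513.09 and was in 8 of 8 and 0 of 8. The third, in an intron of ROBO2, which encodes an axon guidance receptor, scored 429.92 and 322.32 and was also in 8 of 8 and 0 of 8. In RCC4 each of the 3 was in 2 of 2 HIF-2α and 0 of 2 HIF-1α libraries. The best ranked HIF-1-only sites without HIF-1β were weaker, with scores of 79.9 and 71.43 at 0.03 kb from the TSS of TBC1D22A. The next scored 91.32 and 67.69 at −228 kb from CTNND2, and was in none of the 16 other libraries. The third scored 74.01 and 67.29 and lay 1164 kb from TPTE, its nearest gene. An absent core was not peculiar to HIF-2-only sites: these 3 HIF-1-only sites had none within 100 bp, nor did NARF, the best ranked of the class, and ZNF292, both with HIF-1β in both libraries.

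Copies of the co-chaperone gene ST13 recurred among these sites, a pattern noticed after the values were seen. The site near SERTAD4 lay in the processed pseudogene ST13P19, the site near ST3GAL1 (HIF-2α scores 290.75 and 325.65) in ST13P6 and the site near NBPF6 (88.33 and 129.92) in ST13P21, and they hold 4, 5 and 3 copies of GGAATG in 200 bp. In all, 5 of 91 HIF-2-only sites without HIF-1β (5.49%, 1.81 to 12.4) had their centre in an annotated pseudogene. With HIF-1β it was 1 of 98 (1.02%, 0.026 to 5.55), and of HIF-1-only sites 0 of 77 with HIF-1β and 0 of 21 without. The intervals of the HIF-2-only shares overlap, and the share over all merged sites is not given here. Of ST13 and its 17 pseudogenes, 3 had a peak in both 6 h HIF-2α lists and 0 in any 6 h HIF-1α or HIF-1β list. Over all 12 HIF-2α libraries of HKC-8, ST13P19 and ST13P6 had a peak in 12, ST13P13 and ST13P15 in 11, ST13P21 in 9 and ST13 itself in 4, and all 18 copies were at 0 of 12 HIF-1α libraries. At 8 of the 18 copies 0 of 12 HIF-2α libraries had a peak. HIF-1β had a peak at ST13P6 in 4 of its 14 HKC-8 libraries, at ST13P19 in 3, and at ST13P21, ST13P13 and ST13P10 in 1 each. Reads from near-identical copies can be placed at the wrong copy, so which copy was bound is uncertain, and whether these peaks came from HIF-2α or from another protein recovered with its antibody was not tested.

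By nearest protein-coding TSS, HIF-1-only sites pointed to 97 genes (0.49% of 19807), HIF-2-only sites to 178 (0.899%) and sites of both to 38 (0.192%). The nearest TSS need not be the gene a site acts on. In 10 lists of 92 genes of hypoxia biology, 12 (13%) had a HIF-1-only site, 7 (7.61%) a HIF-2-only site and 22 (23.9%) a site of both. The lists hold known HIF targets and were chosen with earlier results of these data known, so these shares are given as a description.

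Glycolysis and glucose uptake was the longest list. Of its 19 genes, 5 had a HIF-1-only site (HK2, PFKFB4, PFKL, PGK1, SLC2A1), 5 a site of both (ALDOA, ENO1, GAPDH, GPI, SLC2A3), 2 a HIF-2-only site (ENO1, SLC2A1) and 3 a HIF-1 site with 1 HIF-2α peak (PFKFB3, PFKP, PKM). PGK1 scored 577.87 and 230.42 for HIF-1α and 614.48 and 490.05 for HIF-1β at −0.20 kb. HK2, the hexokinase that starts glycolysis in many dividing cells, scored 313.3 and 165.02 at −0.20 kb. PFKFB4 and PFKL, of the phosphofructokinase step, scored 295.33 and 132.06, and 269.18 and 72.77. All 5 HIF-1-only sites of this list were within 1 kb of a TSS.

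At 4 of the 5 glycolytic genes with a site of both, the exception being SLC2A3, each HIF-1α score was above each HIF-2α score. These scores are from lists of unlike antibodies and were not compared by a test. At ALDOA, which encodes aldolase, HIF-1α scored 397.08 and 313.5 and HIF-2α 159.74 and 190.97. At ENO1, which encodes enolase, the scores were 1224.68 and 938.14 for HIF-1α and 251.69 and 94.51 for HIF-2α, and at GPI 761.12 and 533.08 against 55.03 and 79.58. Separate sites of the same gene were also called for the 2 isoforms. SLC2A1, the glucose transporter GLUT1, had a HIF-1-only site at 0.48 kb (186.65 and 92.86) and a HIF-2-only site at 2.05 kb (124.65 and 123.47). Each distance is to the closest annotated start of the gene, and these sites began at bases 43423725 and 43406676 of chromosome 1. In other conditions of this cell line the first was in 3 HIF-1α and 2 HIF-2α libraries, and the second in 2 and 5. ENO1 had a HIF-2-only site at −24.9 kb (100.16 and 100.06), with no HIF-1β peak.

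Genes for the fate of lactate and pyruvate had sites of both alone among the classes: 3 of 10, LDHA, PDK1 and SLC16A3. LDHA, which makes lactate, scored 195.07 and 138.89 for HIF-1α and 130.58 and 369.79 for HIF-2α, so the isoforms overlapped. PDK1, which holds pyruvate out of the mitochondrion's citric acid cycle, scored 646.27 and 662.77 for HIF-1α and 71.83 and 75.52 for HIF-2α. Of 7 glycogen genes, PGM1 had a HIF-1-only site and PPP1R3C a site of both. Of 4 genes for pH and carbonic anhydrases, CA9, a classical HIF-1α target, had a HIF-1-only site near the limit (78.92 and 53.58) with no HIF-1β peak, and that site was in 4 of 8 other HIF-1α and 5 of 8 other HIF-2α libraries.

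In the list named mitophagy and mTOR stress, 3 of 7 genes had a site of both (BNIP3L, DDIT4, HILPDA), 2 a HIF-1-only site (DDIT4, PLIN2) and 0 a HIF-2-only site. The name of the list does not describe HILPDA and PLIN2. BNIP3L, a mitophagy receptor, scored 1320.67 and 639.04 for HIF-1α and 86.12 and 97.92 for HIF-2α. Its relative BNIP3 had HIF-1α scores of 990.34 and 361.29 and 1 HIF-2α peak of 98.58. Oxygen sensing had sites of both for EGLN1 (0.065 kb) and EGLN3 (−109 kb), the prolyl hydroxylases PHD2 and PHD3, in 2 of 9 genes. Histone demethylases had them at KDM3A and KDM4B, and a HIF-1-only site at KDM6B (227.19 and 130.79), in 8 genes. Of 8 collagen genes P4HA2, a collagen prolyl hydroxylase, was HIF-1-only (298.7 and 191.39), COL4A2 HIF-2-only (180.94 and 162.22), and P4HA1 and PLOD2 of both.

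In the list of growth factors and cell cycle, 3 of 11 genes had a HIF-2-only site and 1 a HIF-1-only site. Among all 19807 protein-coding genes, 178 and 97 did. The HIF-2-only sites were those of IGFBP3 at −224 kb (191.35 and 135.37), TGFA at −42.8 kb (55.03 and 84.09) and NDRG1 at −55.0 kb (66.07 and 88.21). NDRG1, a stress-responsive gene, had all 3 classes upstream, with a site of both at −73.6 kb (HIF-1α 421.12 and 269.02, HIF-2α 224.87 and 287.24) and a HIF-1-only site at −80.2 kb (62.66 and 60.61). The IGFBP3 site, like the HIF-2-only sites of COL4A2 and ENO1, had no HIF-1β peak and no HRE core. The centre of the IGFBP3 site lay in the pseudogene ZNF619P1. Of 9 secreted vascular factors, ADM and STC2 had sites of both.

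Outside the lists, the best ranked HIF-1-only site with HIF-1β lay at the start of NARF (1520.74 and 687.37) and was in 8 of 8 other HIF-1α and 0 of 8 HIF-2α libraries, as was the FAM174B site (1153.66 and 810.58). PNRC1, a nuclear receptor coactivator, scored 1037.01 and 609.02, and the site was in 8 HIF-1α and 3 HIF-2α libraries. ZNF292 scored 719.99 and 247.18 at 0.01 kb from its TSS.

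The best ranked HIF-2-only site with HIF-1β was that near NPPB, with 387.91 and 302.53 for HIF-2α and 167.38 and 242.48 for HIF-1β at −0.34 kb. It was in 8 of 8 other HIF-2α libraries and 5 of 8 HIF-1α libraries. An intronic site of SUSD1 scored 249.2 and 432.63. The site 26.6 kb from CCN1, a matricellular protein gene that YAP and TEAD are known to drive, scored 199.42 and 295, and that in SLC7A5, an amino acid transporter gene, 266.95 and 233.74. PEX26, KLHL36, TMEM63B and TACC1 completed the named sites, with HIF-2α scores from 145.16 to 276.91. Of the 8 only NPPB was within 1 kb of a TSS.

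AMOTL2, another known YAP target, had 4 HIF-2-only sites, the most of any gene. Their scores were 176.81 and 239.99 at −0.036 kb, 148.85 and 139.4 at 44.8 kb, 53.48 and 65.96 at −52.1 kb, and 62.67 and 53.54 at 59.5 kb. A further AMOTL2 site was replicated for HIF-1α and had a single HIF-2α peak. GGAATG is not reported here for the CCN1 and AMOTL2 sites, and a link to YAP or TEAD was not tested. CRISPLD2 had 3 HIF-2-only sites. In all, 19 genes were nearest to more than 1 site when sites with a single peak of the other isoform were counted too.

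Among sites of both, ARRDC3 ranked first, with scores of 469.84 and 508.82 for HIF-2α and of 292.74 and 260.93 for HIF-1α, which do not overlap. SNAPC1 overlapped between the isoforms, at 284.34 and 355.48 for HIF-1α and 263.9 and 376.69 for HIF-2α, and 2 HIF-2-only sites lay at −7.17 kb and −6.78 kb of the same gene. RRP12, a ribosome biogenesis gene, had 1975.11 and 1422.81 for HIF-1α and 198.16 and 132.99 for HIF-2α. ZNF395, AK4 and SLC2A3 also had higher HIF-1α scores, although at the SLC2A3 site (490.06 and 207.08 against 118.35 and 234.99) the isoforms overlapped. That site lay at −34.7 kb.

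**Figure D4:**
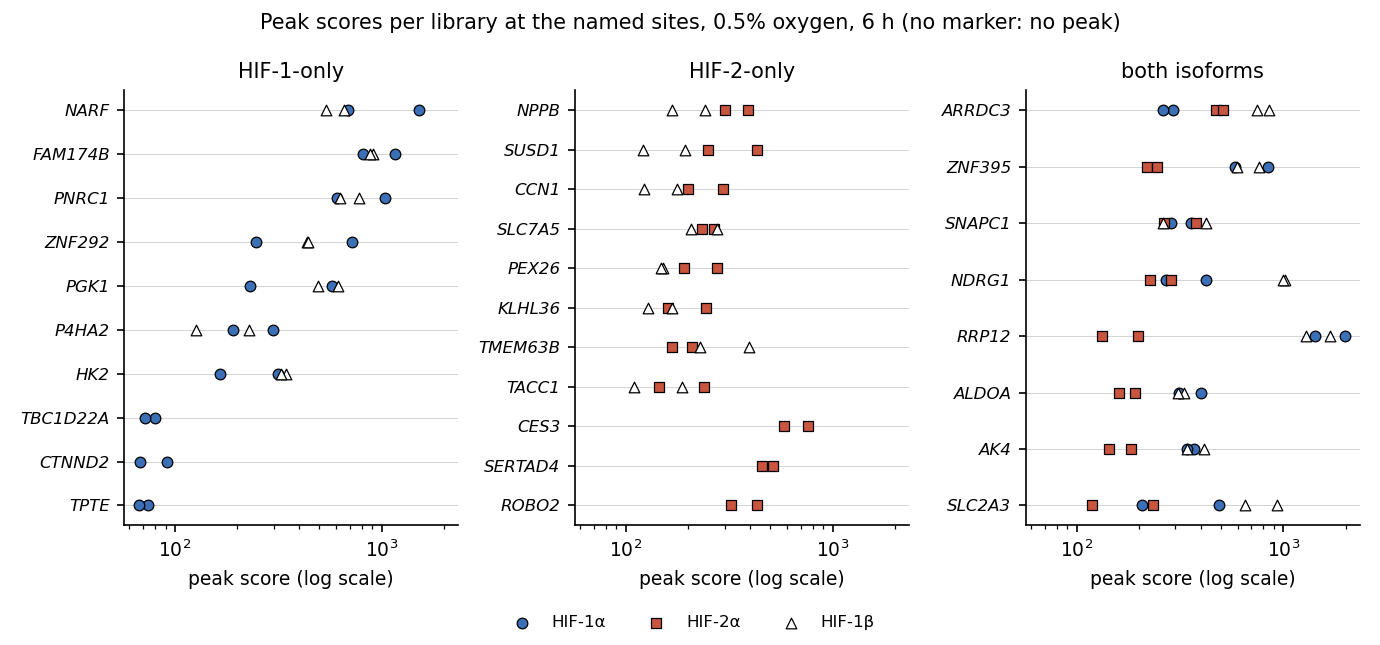
Peak score (x axis, log scale) per library at the named sites (y axis, nearest gene) of HIF-1-only, HIF-2-only and both, for the 2 libraries of each antibody at 0.5% oxygen, 6 h. A missing marker is a list with no peak: the last 3 sites of the left and middle panels have no HIF-1β peak, and CES3, SERTAD4 and ROBO2 still have HIF-2α scores from 322.32 to 761.68.

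Libraries the sorting did not use gave a test of the classes. The measure was the percent of HIF-1-only sites with a peak minus the percent of HIF-2-only sites with a peak, in each of 16 other HKC-8 libraries. It was 33.5 ± 25.5 points in HIF-1α libraries (SD, n = 8) and −51.3 ± 18.8 in HIF-2α libraries (SD, n = 8), with no overlap. The mean difference within conditions was 84.8 points (exact permutation test within condition, two-sided, p = 0.00154, the smallest that 1296 arrangements allow; 0.0108 after Benjamini-Hochberg adjustment over 7 tests). With the replicate number as a block, the exact permutation p was 0.00781 (0.0547 after the same adjustment). The mean difference was 127 points at 0.5% for 16 h, 73.4 at 0.5% for 48 h, 73.4 at 3% for 6 h and 64.8 in WT cells of the knockout experiment. With each of the 4 lists behind the classes left out in turn, the mean difference was 49.1 and 52.4 points without HIF-1α replicate 1 or 2 and 47.0 and 42.5 points without HIF-2α replicate 1 or 2.

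At 0.5% for 16 h the 2 HIF-1α libraries had 84.7% and 66.3% of HIF-1-only sites and 12.1% and 6.84% of HIF-2-only sites, and the 2 HIF-2α libraries had 17.3% and 6.12% of the first and 66.8% and 79.5% of the second. At 0.5% for 48 h the HIF-1α libraries had 59.2% and 20.4% of HIF-1-only sites, and the second HIF-2α list, which held 237 peaks, had 14.2% of HIF-2-only sites against 73.7% in the first. At 3% for 6 h the HIF-1α libraries had 37.8% and 15.3% of HIF-1-only sites and the HIF-2α libraries 35.3% and 63.2% of HIF-2-only sites. Sites of both were the most often recalled at 16 h, from 92.1% to 100% over the 4 HIF-α libraries.

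In WT cells of the knockout experiment the HIF-1α libraries (1913 and 1535 peaks) had close shares of the 2 classes and the HIF-2α libraries (4537 and 6749 peaks) did not. HIF-1α had 49.5% and 48.4% of HIF-2-only sites there, close to its 57.1% and 54.1% of HIF-1-only sites, whereas HIF-2α had 88.9% and 90.5% of HIF-2-only and 33.7% and 29.6% of HIF-1-only sites. Of 190 HIF-2-only sites, 64 kept their class in those cells and 87 were of both, and of 98 HIF-1-only sites 16 kept it and 26 were of both. At 0.5% for 16 h in the first experiment 87 and 45 kept their class, and 9 and 4 were of both. No HIF-1-only site was HIF-2-only in either of these sets, and no HIF-2-only site was HIF-1-only.

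**Figure D5:**
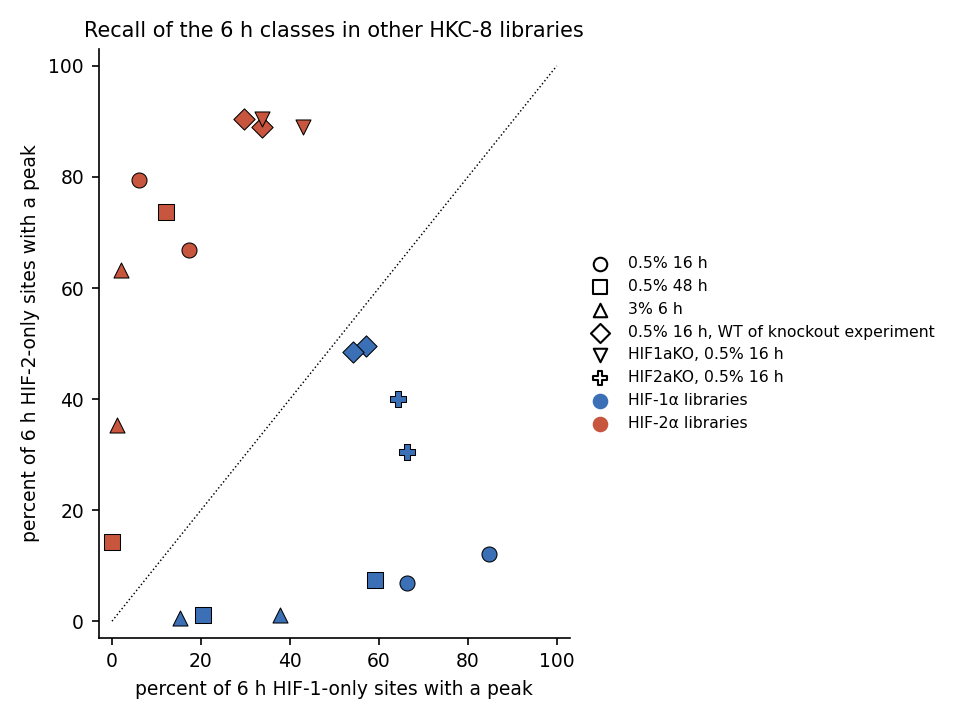
Percent of 6 h HIF-1-only sites (x axis) against percent of 6 h HIF-2-only sites (y axis) with a peak, 1 point per HKC-8 HIF-α library, coloured by antibody and shaped by condition, with a dotted line of equal shares. HIF-2α points all lie above the line and HIF-1α points below it, those of WT cells of the knockout experiment nearest to it.

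Where 1 isoform was knocked out the same order of shares was seen in both libraries of each antibody. HIF-1α in HIF2aKO cells (1271 and 915 peaks) had 64.3% and 66.3% of HIF-1-only and 40% and 30.5% of HIF-2-only sites. HIF-2α in HIF1aKO cells (5228 and 6540 peaks) had 33.7% and 42.9% of HIF-1-only and 90.5% and 88.9% of HIF-2-only sites. The measure was 30.0 ± 8.14 points against −51.5 ± 7.61 (SD, n = 2 each), a difference of 81.5 points with no overlap, at the exact permutation p = 0.333 that is the smallest possible with 2 against 2 (adjusted 0.467). It was 51.7 and 57.8 points without HIF-1α replicate 1 or 2 of the lists behind the classes, and 43.7 and 36.9 points without HIF-2α replicate 1 or 2. HIF-1β in the same lines gave 8.61 ± 0.349 points in HIF2aKO and −50.6 ± 13.2 in HIF1aKO cells (SD, n = 2 each; exact permutation p = 0.333, adjusted 0.467). HIF-1β in HIF1aKO cells (3387 and 5786 peaks) had 13.3% and 40.8% of HIF-1-only sites and 73.2% and 82.1% of HIF-2-only sites. In HIF2aKO cells (2550 and 2085 peaks) it had close shares of the classes, 68.4% and 69.4% of HIF-1-only and 60% and 60.5% of HIF-2-only sites. The HIF-1β difference, 59.2 points, was 19.9 and 24.0 without HIF-1α replicate 1 or 2 and 45.5 and 42.1 without HIF-2α replicate 1 or 2.

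Site by site, 85 of 98 HIF-1-only sites were in more of the 8 other HIF-1α than of the 8 other HIF-2α libraries, 3 were in fewer and 9 in none of either. Of 190 HIF-2-only sites, 179 were in more HIF-2α libraries, 1 in fewer and 7 in none. Few sites were absolute: 4 HIF-1-only sites, with 5 of the HIF-2-only class, were in 8 of 8 libraries of their isoform and 0 of 8 of the other.

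In RCC4 the HIF-1α libraries had 86.7% and 61.2% of HIF-1-only sites and 50% and 24.2% of HIF-2-only sites, and the HIF-2α libraries 37.8% and 14.3% of the first and 70% and 51.1% of the second. In HepG2 the replicates of each label went apart, and replicate 1 of either label was like replicate 2 of the other. The libraries labelled HIF-1α had 26.5% and 79.6% of HIF-1-only sites and those labelled HIF-2α 81.6% and 27.6%. Whether labels were exchanged was not tested, the values are given as labelled, and HepG2 was used in no test. HIF-2-only sites had peaks in 15.8% to 23.2% of cases in those 4 libraries.

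Over whole lists, the isoforms at 6 h could not be separated by a test, since 2 libraries against 2 allow no p below 0.333. The promoter-proximal share of all peaks was 16.9 ± 4.74% in the lists of HIF-1α and 8.26 ± 0.347% in those of HIF-2α (SD, n = 2 each, exact permutation p = 0.333), and the AP-1 share was 5.01 ± 1.27% and 10.7 ± 2.05% (p = 0.333, exact permutation test, n = 2 each). Both sets of values were apart. The HRE core share, 39.1 ± 1.28% and 38.6 ± 1.88%, and the share with a HIF-1β peak, 15.4 ± 1.99% and 16.8 ± 2.05%, overlapped between the isoforms (exact permutation p = 0.667 for each, n = 2 each). All 4 tests were two-sided, and their adjusted p-values were 0.467, 0.467, 0.667 and 0.667. With peaks scoring under 100 left out, HIF-1α minus HIF-2α was 51.4 points for promoter proximity, 19.4 for the HRE core, −17.8 for AP-1 and 30.1 for HIF-1β (exact permutation p = 0.333 for each, n = 2 each, the smallest possible, so that the libraries were apart in all 4).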

How the data were processed

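Peak lists of ChIP-seq libraries from human cell lines were analysed as deposited. The authors trimmed reads (Trim Galore 0.3.3 in the submitters' processing notes), aligned them to GRCh37 with BWA 0.7.5a-r405, removed reads of low mapping quality, black-listed regions and duplicates (Picard 1.106), and called peaks per library against input with MACS. Their study also used a second caller, T-PIC, and a background filter. The lists used here carry MACS peak names without gaps in their numbering, and so were taken as MACS calls before that selection. The deposited score of each peak is that of the authors' caller, not scaled between libraries. Read depth is unknown from these lists.

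Peaks that overlapped by at least 1 bp were merged into sites. The TSS of 89217 protein-coding transcripts (GENCODE 44 on GRCh37) were used, and each site's distance is that of its centre to the closest. Named sites were, per class, the 8 with the best mean rank of score and HIF-1β in both 6 h replicates, the 3 best with HIF-1β in neither, and sites nearest to genes of the 10 lists. Some of these are not reported here. The members, gene lists and motifs were chosen with earlier results of these data known. Shares have exact binomial intervals and differences Newcombe intervals, and libraries were compared by exact permutation tests. The scripts used Python 3.11.15, numpy 2.4.6, pandas 2.3.3, SciPy 1.17.1 and pysam 0.24.0, and were tested on simulated data.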

Additional observations from a re-analysis of the deposited data

Results flagged for a closer look

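A site 10.2 kb upstream of MRPL45, which encodes a mitochondrial ribosomal protein, was of opposite class in 2 conditions. It was called in both HIF-1α and neither HIF-2α list at 0.5% oxygen for 6 h, with HIF-1α scores of 98.49 and 72.57, and in both HIF-2α and neither HIF-1α list at 3% for 6 h. At 0.5% oxygen for 6 h it also had 2 HIF-1β peaks, and over the other conditions of HKC-8 it was found with HIF-1α in 5 of 8 libraries and with HIF-2α in 7 of 8. It was the only site of either single-isoform class to change in this way in the conditions compared, and the difference between the conditions was not tested.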

How the results depend on the processing

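Of 166 alternative values over 41 settings, 130 kept their direction and their side of the threshold or stayed within the stated range. With scores of at least 100 the classes held 41, 66 and 15 sites, and HIF-1-only minus HIF-2-only became 71.4 points for promoter proximity, −25.8 for AP-1 and 37.9 for HIF-1β, while the HIF-1β share per library turned to 30.1 points. It also turned, to 0.238, where peaks had to meet both HIF-1β lists. The HRE share per library turned to −0.132 points with lists trimmed to the shortest. Sites with HIF-1β alone gave 6.22 points for the HRE core and −30.1 for AP-1, and have no value for HIF-1β, and motifs in the whole site gave −29.9 for AP-1. Knockout-experiment WT libraries alone, added after the data were seen, gave 64.8 points of class recall (exact permutation p = 0.333, the smallest possible). Leaving out a 6 h library makes every peak of the isoform's other list count as called, so these values rest on whole lists: 112 to 1377 HIF-1-only, 194 to 1392 HIF-2-only and 42 to 64 sites of both; differences of 1.25 to 58.7 points for promoter proximity, −28.1 to 54.7 for the HRE core, −22.1 to −5.07 for AP-1 and −47.9 to 69.6 for HIF-1β. Without HIF1a replicate 1 or 2 the HRE difference turned to −28.1 and −25.7, and that of HIF-1β to −47.9 and −41.8. Per library, leaving 1 out gave −0.84 to 1.81 points for the HRE core (−0.42 without HIF1a replicate 1, −0.84 without HIF2a replicate 1) and −2.78 to 0.121 for HIF-1β (0.079 without HIF1a replicate 2, 0.121 without HIF2a replicate 2). Class recall ranged from 42.5 to 92.3 points, and with a single replicate number (77.2 and 92.3) the test could not pass. Calls of same-numbered replicates deviated with correlations from −0.0096 to 0.063 over merged sites. At 6 h only 42 of 5152 merged sites were in 1 list of each isoform, so such a correlation could show little. Whether same-numbered replicates shared a round is not known. With the number as a replicate block the class recall stayed at 84.8 points (exact permutation p = 0.00781, the smallest possible), and the adjusted p over the 7 tests went from 0.0108 to 0.0547, past the threshold. Other calls were judged on unadjusted p-values, and none changed with the block. The GGAATG shares were not recomputed under these settings.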
